A study of Mus musculus with 7 samples.

Results

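The genes described here encode 10 subunits of the protein complexes condensin and cohesin, chosen by their symbols. They are Smc2, Smc4, Ncapd2, Ncapg and Ncaph of condensin I and Smc1a, Smc3, Rad21, Stag1 and Stag2 of cohesin, and all 10 were found among the 53801 gene rows of the count table. RNA was sequenced from mouse tissue labelled cortical plate, from the strain C57BL/6J at both ages, in 7 libraries. The adult group held 3 libraries from females aged 10.5 months with the transgene CamK II-Cre, which acts in forebrain excitatory neurons. Adult replicates 1 and 3 were Atr fl/+ and adult replicate 2 was Atr +/+. The E14.5 group held 4 libraries from embryonic day 14.5 with the genotype Nbs1 fl/+ and the transgene Nestin-Cre, which acts in neural progenitors and their progeny. E14.5 replicates 1 and 4 were male and replicates 2 and 3 were female. All libraries therefore carried a Cre transgene, and no library was free of transgenes. Libraries that differ in sex or Atr genotype came from different animals. Nothing in the labels states that every library is from a separate animal. The p-values therefore cover only the spread among these libraries, which may be partly technical. The labels' dates put isolation of the embryonic brains 12 days after the plug, fewer days than the labelled stage, and the stage is used as labelled. Age cannot be told apart from the kit used for the libraries, the Cre driver or the floxed gene.

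Condensin and cohesin are ring-shaped complexes that hold or fold DNA. In each, a pair of SMC ATPases forms the long arms of the ring, a kleisin subunit closes it, and subunits built of HEAT repeats bind to the kleisin and to DNA. Condensin compacts chromosomes in mitosis. Cohesin holds sister chromatids together from replication to anaphase, and it also extrudes chromatin loops in interphase, in cells that no longer divide as well as in cycling ones. In the embryonic cortex, dividing progenitors lie beneath the layer of young neurons, whereas neurons of the adult cortex are postmitotic.

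The adult libraries held 27327927 to 29996018 counts and the E14.5 libraries 32533065 to 43197226. Levels are given as CPM, counts per 1000000, scaled with TMM factors, which correct library totals for composition, and fold changes are adult over E14.5. By edgeR's quasi-likelihood test with Benjamini-Hochberg adjustment at 0.05, 44.7% of the 20800 genes tested were lower in adults and 41.7% were higher, 86.4% in either direction. With total counts as the only scaling the split was 11470 lower and 6751 higher, against 9292 lower and 8683 higher with TMM. The median log2 fold change over all genes was then −0.49, against −0.08 with TMM. Markers of cell types differed widely between the ages. All 20 markers of cycling cells were lower in adults, with summed levels of 97.4 to 104 CPM in adults and 2385 to 2754 CPM at E14.5, and none of them was at 0 in every library of an age. All 5 markers of intermediate progenitors were lower, with sums of 37.0 to 45.0 CPM in adults and 668 to 741 CPM at E14.5. Of the 9 markers of radial glia, the stem cells of the embryonic cortex, 8 were lower and 1 was higher, with sums of 773 to 838 CPM in adults and 2234 to 2301 CPM at E14.5. All 6 markers of oligodendrocytes were higher, with sums of 5958 to 6202 CPM in adults and 39.3 to 45.8 CPM at E14.5. All 6 markers of astrocytes were higher as well, with sums of 5193 to 5416 CPM in adults and 250.2 to 267 CPM at E14.5. Of the 10 neuronal markers 7 were higher and 2 lower, with sums of 9683 to 10211 CPM in adults and 2832 to 3428 CPM at E14.5. Microglia and oligodendrocyte precursors had all 6 and all 5 markers higher in adults. All 7 erythroid markers were lower, with sums of 189 to 206 CPM in adults, where Hba-x was at 0, and 1135 to 1557 CPM at E14.5. Endothelium had 3 of 5 markers lower and 1 higher. Choroid plexus and meninges had 4 of 6 lower and 1 higher, with uneven sums of 43.5 to 484 CPM in adults and 325 to 794 CPM at E14.5. The part of these differences in the values below was not tested. In bulk tissue, fewer cells of a type and less RNA per cell cannot be told apart.

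All 10 subunit genes were lower in adults, and for all 10 every adult library lay below every E14.5 library. Over all genes tested, 44.7% were called lower by edgeR, 44.0% had every adult library below every E14.5 library and 41.3% had every adult library above. The size of the fall set the 5 condensin members apart from the 5 cohesin members. The condensin members had log2 fold changes of −7.54 to −3.07, with a median of −4.39. The cohesin members had −1.22 to −0.44, with a median of −0.93, beside a median of −0.08 over all genes tested. This did not hold for every condensin subunit, as Ncapd3 (−0.49) and Ncaph2 (−0.48) of condensin II, described below, lay within the cohesin range. In a test against a change of 2-fold (edgeR's glmTreat, chosen after the data were seen), all 5 condensin genes and 2 of the 5 cohesin genes passed, where 22.7% of all genes passed in that direction, 24.6% in the other and 47.2% in either. With total counts as the only scaling, 3 of the 5 cohesin genes passed it, and 31.6% of all genes.

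**Figure D1:**
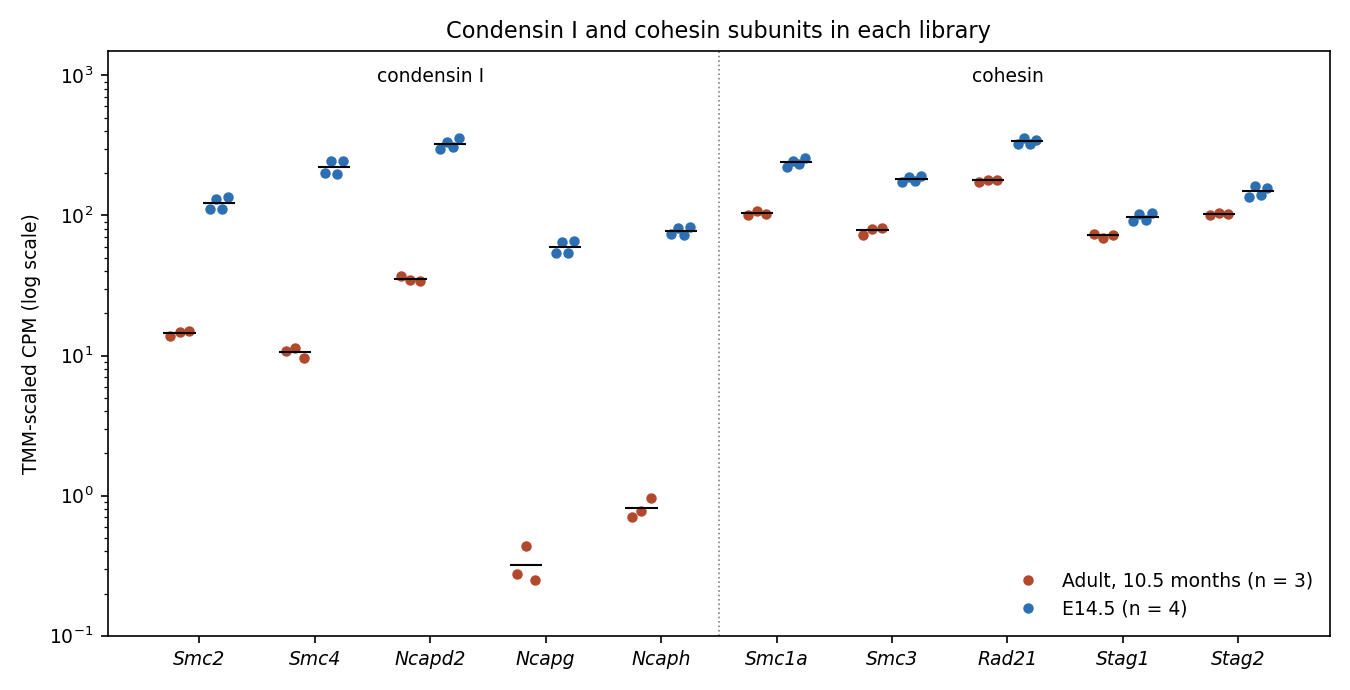
TMM-scaled CPM on a log scale for each condensin I and cohesin gene, with 1 point per library, adult libraries left and E14.5 libraries right, and a bar at each group's mean. The adult points lie below the E14.5 points for all 10 genes, farthest for Ncapg, at 0.251 to 0.434 CPM in adults and 54.0 to 66.2 CPM at E14.5.

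Promoter sequence is shown first, because many genes expressed in G2 and mitosis share short elements near their start. RefSeq's table for GRCm38.p6, with 250 bases before and 50 after each start, held 7 of the 10 members. They were Smc2, Ncapd2, Ncapg, Ncaph, Smc1a, Smc3 and Stag1. The letters TTTGAA, the core of the cell cycle genes homology region (CHR), were searched on both strands together with the E2F-type letters TTTCCCGC and the CCAAT box, and no matches overlapped. TTTGAA was present in Smc2, Ncapd2 and Ncapg, and not in Ncaph, Smc1a, Smc3 or Stag1, where 18.1% of 27025 promoters in the table held it. TTTCCCGC was present in Ncapg, Smc1a and Stag1, where 1.11% of the promoters held it. CCAAT was present in Smc2, Ncapd2, Ncapg, Smc1a and Stag1, where 37.9% held it. A match describes the letters only, and none of these data measured binding there. The 150 bases before the start are printed for 2 condensin genes that held TTTGAA and for 2 cohesin genes that did not, with the matched letters in capitals. Matches outside these stretches are not shown. They were CCAAT of Ncapg further upstream and, after the start, TTTCCCGC of Ncapg and Smc1a and another TTTGAA of Smc2. A match on the minus strand reads TTCAAA or ATTGG.
Ncapg, chr5:45669775-45669924, plus strand: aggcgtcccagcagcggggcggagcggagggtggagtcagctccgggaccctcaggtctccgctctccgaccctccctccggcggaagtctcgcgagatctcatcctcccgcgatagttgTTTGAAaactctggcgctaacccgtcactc
Smc2, chr4:52439071-52439220, plus strand: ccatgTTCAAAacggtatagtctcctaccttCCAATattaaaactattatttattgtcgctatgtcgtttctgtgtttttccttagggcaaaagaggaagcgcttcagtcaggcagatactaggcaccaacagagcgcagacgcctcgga
Smc1a, chrX:152016278-152016427, plus strand: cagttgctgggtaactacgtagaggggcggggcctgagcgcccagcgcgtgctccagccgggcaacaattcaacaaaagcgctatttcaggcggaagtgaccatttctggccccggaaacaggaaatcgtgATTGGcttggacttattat
Stag1, chr9:100643298-100643447, plus strand: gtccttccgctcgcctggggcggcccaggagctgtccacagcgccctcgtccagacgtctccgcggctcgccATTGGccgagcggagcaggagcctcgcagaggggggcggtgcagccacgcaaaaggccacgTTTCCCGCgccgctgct
In Ncapg the match to TTTGAA began 30 bases before the start, on the plus strand. In Smc2 the match shown began 145 bases before the start, on the minus strand. In Ncapd2, whose stretch lay mostly over exons of the GENCODE annotation and is not printed, it began 123 bases before the start. The stretch of Stag1 lay inside the longer GENCODE gene.

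The SMC ATPases of condensin, Smc2 and Smc4, are shared by condensin I and condensin II. Smc2 (chromosome 4, 52439243 to 52488260, plus strand of GRCm38) had 13.7, 14.7 and 15.1 CPM in the adult libraries, against 111, 132, 111 and 135 CPM in the E14.5 libraries. The adult level was 11.9% of the E14.5 level, and the groups did not overlap (log2 fold change −3.07, SE 0.092, edgeR adjusted p = 1.0e-10). Smc4 (chromosome 3, 69004738 to 69034623, plus strand) had 10.8, 11.3 and 9.57 CPM in the adult libraries, against 202, 243, 199 and 243 CPM in the E14.5 libraries. It fell further than its partner, to 4.75% of the E14.5 level, again with no overlap (log2 fold change −4.39, SE 0.11, edgeR adjusted p = 2.2e-11).

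The subunits that make the ring condensin I rather than condensin II are Ncaph, its kleisin, and the HEAT repeat proteins Ncapd2 and Ncapg. Ncaph (chromosome 2, 127103809 to 127133954, minus strand) had 0.708, 0.781 and 0.962 CPM in the adult libraries, from 18, 18 and 23 counts, against 74.3, 81.6, 72.5 and 83.0 CPM in the E14.5 libraries. Its adult level was 1.05% of the E14.5 level, and the log2 fold change was −6.57 (SE 0.11, edgeR adjusted p = 2.3e-12). Ncapg (chromosome 5, 45669919 to 45700546, plus strand) had 0.275, 0.434 and 0.251 CPM in the adult libraries, from 7, 10 and 6 counts, against 54.0, 65.0, 54.1 and 66.2 CPM in the E14.5 libraries, from 2430, 2381, 2059 and 3204 counts. This was the deepest fall among the members, to 0.535% of the E14.5 level, on the log2 scale −7.54 (SE 0.18, edgeR adjusted p = 1.6e-11), and 0.885% of all genes tested fell further. The adult value rests on few counts, and the fold change was −4.22 on the log2(RPKM + 0.5) scale. Of the exon bases of Ncapg, 13.4% lie under Lcorl on the opposite strand, and the strand setting of the counting is not given in the sources used here.

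Ncapd2 fell less deeply than the other 2 subunits that are particular to condensin I. It is on chromosome 6 (125168007 to 125191701, minus strand), and 3.78% of its exon bases are shared with Scarna10 and Gm28967 on the same strand. It had 37.2, 34.6 and 34.1 CPM in the adult libraries, against 298, 336, 309 and 355 CPM in the E14.5 libraries. The adult libraries were close together at 10.9% of the E14.5 level, a log2 difference of −3.20 (SE 0.075, edgeR adjusted p = 1.8e-11). Ncapd2 had the highest adult level of the 5 members from condensin I, and in adults the condensin I genes ranged over 125-fold in RPKM, reads per kilobase of exon scaled to 1000000 counts, against 6.12-fold at E14.5.

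The SMC ATPases of cohesin, Smc1a and Smc3, moved together. Smc1a (chromosome X, 152016428 to 152062694, plus strand) had 100.3, 107 and 103 CPM in the adult libraries, against 223, 245, 232 and 256 CPM in the E14.5 libraries. Smc3 (chromosome 19, 53600398 to 53645833, plus strand) had 73.0, 80.3 and 82.0 CPM in the adult libraries, against 174, 189, 176 and 190 CPM in the E14.5 libraries. Neither gene had overlapping groups, and the adult levels were 43.3% of the E14.5 level for Smc1a and 43.1% for Smc3. On the log2 scale Smc1a fell by 1.21 (SE 0.058, edgeR adjusted p = 5.0e-09, and 0.0011 in the test against 2-fold). Smc3 fell by 1.22 (SE 0.059, edgeR adjusted p = 5.0e-09, and 0.00091 in the test against 2-fold). Gm29763, a pseudogene 94.5% identical to Smc3 over 616 bases, had 3 to 5 counts in adult libraries and 24 to 36 at E14.5.

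Rad21, the mitotic kleisin that separase cuts at anaphase, was the most abundant member per length at both ages. It is on chromosome 15 (51962240 to 51991747, minus strand). It had 174, 180.1 and 179.9 CPM in the adult libraries, against 325, 359, 323 and 348 CPM in the E14.5 libraries. The adult level was 52.6% of the E14.5 level, a log2 difference of −0.93 (SE 0.054, edgeR adjusted p = 2.4e-08) that did not pass the test against 2-fold except with total counts as the only scaling. No counts were assigned to its pseudogene Gm8473.

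Stag1 and Stag2 are alternative HEAT repeat subunits, 1 of which sits in each cohesin ring, and they had the smallest falls among the members. Stag1 (chromosome 9, 100597798 to 100959375, plus strand) had 74.3, 69.5 and 72.9 CPM in the adult libraries, against 92.0, 103, 92.6 and 105 CPM in the E14.5 libraries. Its log2 fold change was −0.44 (SE 0.060, edgeR adjusted p = 3.7e-05), an adult level of 73.6%. Stag2 (chromosome X, 42149317 to 42277185, plus strand) had 99.99, 104 and 102 CPM in the adult libraries, against 136, 162, 140 and 157 CPM in the E14.5 libraries. Its log2 fold change was −0.55 (SE 0.066, edgeR adjusted p = 1.4e-05), an adult level of 68.5%. The groups did not overlap for either gene. Of all genes tested, 37.5% had a larger fall than Stag2 and 40.3% a larger one than Stag1.

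Levels of different genes were compared per length, with the deposited RPKM. In adults the means of the 5 cohesin genes stood above those of the 5 condensin genes. Rad21 led with 35.7 ± 0.685 RPKM (SD, n = 3), followed by Smc1a with 15.2 ± 0.474, Smc3 with 12.0 ± 0.756, Stag2 with 10.4 ± 0.183 and Stag1 with 5.20 ± 0.198 RPKM. Ncapd2 came next with 4.78 ± 0.221 RPKM, and its range overlapped that of Stag1. Below it were Smc2 with 2.24 ± 0.114, Smc4 with 1.72 ± 0.133, Ncaph with 0.161 ± 0.0265 and Ncapg with 0.0384 ± 0.0117 RPKM, with no overlap between neighbours.

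At E14.5 the complexes were interleaved. Rad21 led again with 90.4 ± 4.36 RPKM (SD, n = 4), and Ncapd2 with 58.5 ± 4.22 stood in the second place. Smc4 with 48.1 ± 5.03 and Smc1a with 46.8 ± 2.50 RPKM overlapped, followed by Smc3 with 37.1 ± 1.52 and Smc2 with 25.2 ± 2.49 RPKM. Ncaph with 20.4 ± 1.27 and Stag2 with 20.3 ± 1.60 RPKM overlapped, as did Ncapg with 9.56 ± 1.01 and Stag1 with 9.40 ± 0.586 RPKM at the bottom. The cohesin genes ranged over 6.87-fold in adults and 9.62-fold at E14.5.

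**Figure D2:**
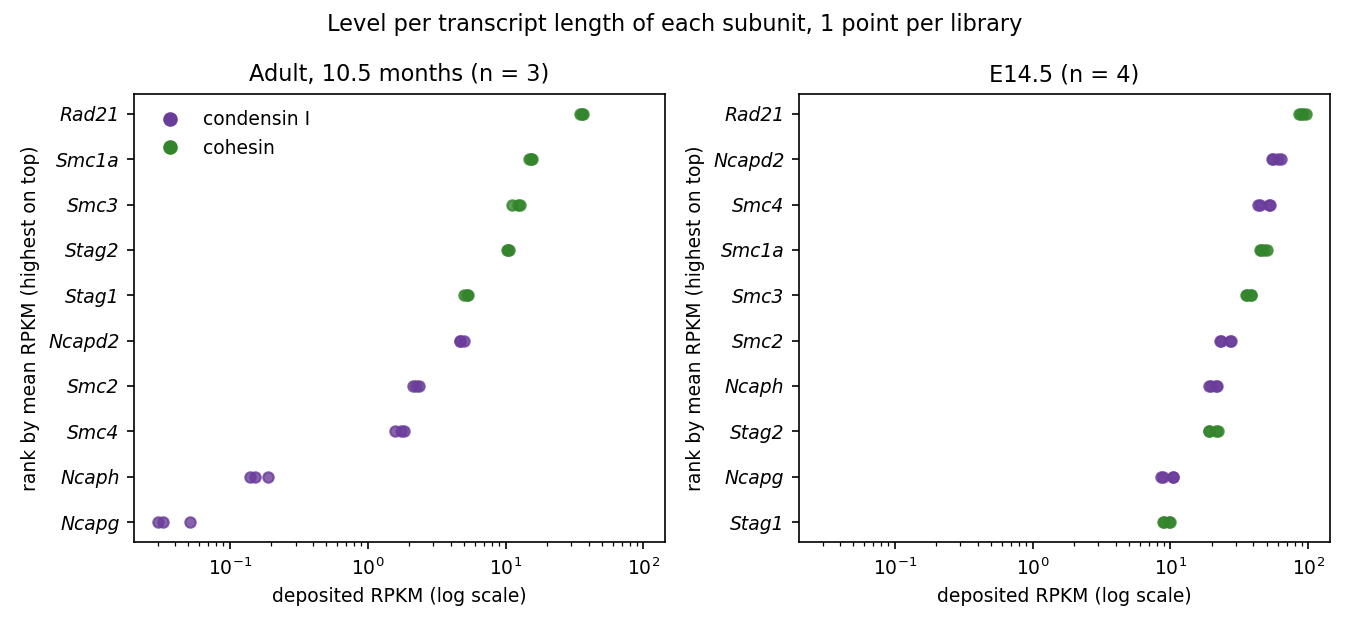
Deposited RPKM on a log scale for each gene, 1 point per library, ordered by the mean within adults (left, n = 3) and within E14.5 (right, n = 4), with condensin I and cohesin in different colours. By their means, cohesin genes fill the top 5 places in adults, while at E14.5 Ncapd2 stands above Smc1a and Smc4 overlaps with it.

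Partners were also compared by their ratio within each library, which depends on the scaling of the library only through the 0.5 added to each level. That addition matters for Ncapg and Ncaph, whose adult levels were near 0.5 CPM. For 8 pairs the log2 ratio of CPM + 0.5 was compared by an exact two-sided permutation test, adjusted over the 8 pairs. With 35 regroupings the smallest exact p is 0.0286. After adjustment it was 0.0381 here, a value that depends on how many of the 8 pairs reached the smallest p. Smc1a over Smc3 was 0.40 ± 0.064 in adults and 0.39 ± 0.031 at E14.5 (SD, n = 3 and 4), a difference of 0.0097 (exact p = 0.83) with overlapping groups. In contrast Smc2 over Smc4 was 0.44 ± 0.16 in adults and −0.86 ± 0.019 at E14.5, a difference of 1.30 (exact permutation adjusted p = 0.0381). Per length, Smc2 was 1.32 ± 0.159 times Smc4 in adults and 0.524 ± 0.00675 times Smc4 at E14.5, so the order of the condensin ATPases was turned round. The 4 E14.5 ratios lay within a narrow band, and the adult ones, at 0.34, 0.36 and 0.63 on the log2 scale of CPM, were more spread.

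Stag2 over Stag1 was 0.49 ± 0.077 in adults and 0.60 ± 0.037 at E14.5, a difference of −0.10 that did not pass (exact permutation adjusted p = 0.0653). With the deposited RPKM plus 0.5 the difference was −0.13 and passed (exact permutation adjusted p = 0.0327). Per length Stag2 was 2.01 ± 0.109 times Stag1 in adults and 2.16 ± 0.0558 times at E14.5, and the ranges of these ratios overlapped.

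The same test set condensin against cohesin. Smc2 over Smc3 was −2.40 ± 0.023 in adults and −0.58 ± 0.083 at E14.5, a difference of −1.82, and the kleisins Ncaph over Rad21 were −7.09 ± 0.12 in adults and −2.12 ± 0.037 at E14.5, a difference of −4.97 (−5.49 with 0.1 added). Per length Ncaph was 0.00450 ± 0.000666 of Rad21 in adults and 0.226 ± 0.00597 of it at E14.5. Both differences had the smallest exact p possible (exact permutation p = 0.0286, adjusted p = 0.0381), and neither pair had overlapping groups. With 1 library left out the smallest exact p was 0.0667 or 0.1, so no pair could pass, and the differences kept their sizes.

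**Figure D3:**
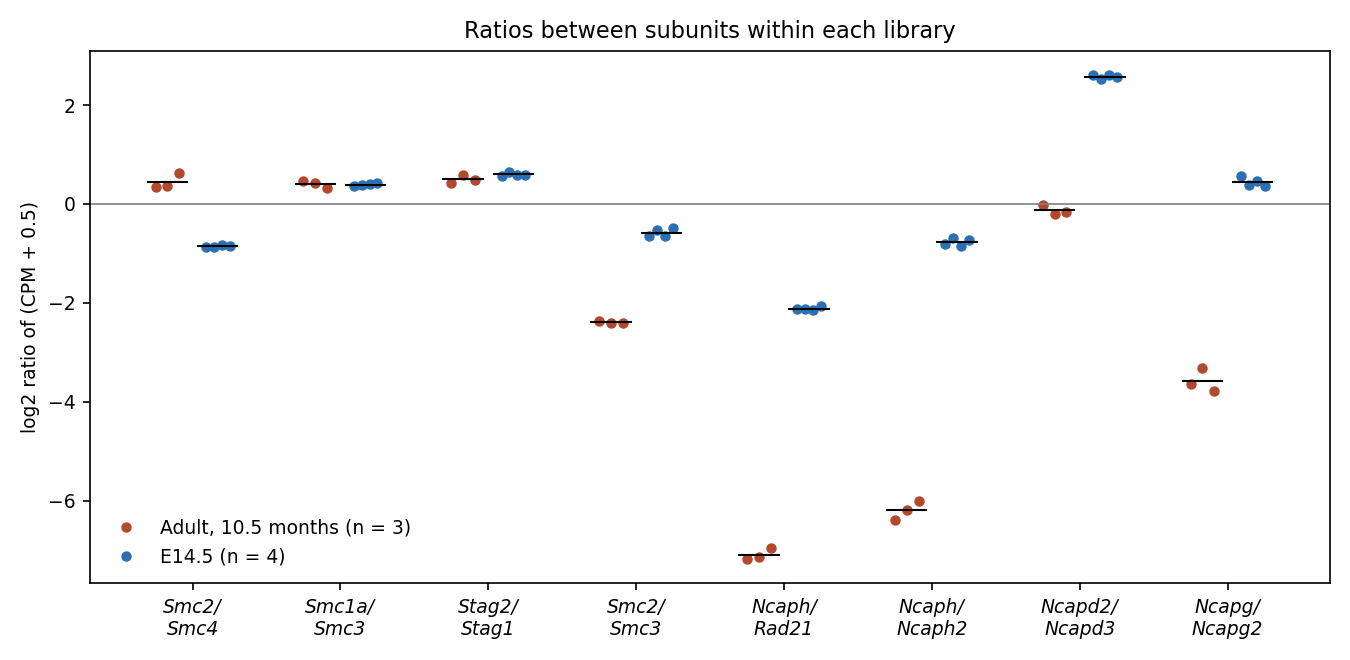
Log2 ratio of CPM + 0.5 for 8 gene pairs, with 1 point per library, adult libraries left and E14.5 libraries right, and a bar at each mean. Smc1a over Smc3 is level between the ages, at 0.40 in adults and 0.39 at E14.5, whereas Ncaph over Ncaph2 is at −6.19 in adults and −0.77 at E14.5.

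Condensin II uses the same SMC pair with its own subunits Ncapd3, Ncapg2 and Ncaph2, and it resides in the nucleus in interphase. All 3 were lower in adults, where 44.7% of all genes tested were, and their median log2 fold change was −0.49. Ncapg2 had 9.16, 8.81 and 9.87 CPM in the adult libraries, against 36.6, 49.4, 39.0 and 51.2 CPM in the E14.5 libraries, and alone of these 3 passed the test against 2-fold, at −2.25 on the log2 scale (SE 0.13, edgeR adjusted p = 3.0e-08). Ncapd3 averaged 38.6 ± 1.03 CPM in adults and 54.1 ± 5.33 CPM at E14.5 (−0.49), and the kleisin Ncaph2 95.5 ± 4.37 CPM in adults and 133 ± 2.59 CPM at E14.5 (−0.48). Of the exon bases of Ncaph2, 19.7% lie under Sco2 and Tymp on the opposite strand.

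Each condensin I subunit fell further than its condensin II counterpart. Ncaph over Ncaph2 was −6.19 ± 0.19 in adults and −0.77 ± 0.078 at E14.5 on the log2 scale, a difference of −5.42 (−5.94 with 0.1 added). Ncapg over Ncapg2 was −3.58 ± 0.24 in adults and 0.44 ± 0.085 at E14.5, a difference of −4.03. The 0.5 added exceeds the adult level of Ncapg, and with 0.1 added this difference was −4.95. Per length, Ncapg was 0.0491 ± 0.0178 times Ncapg2 in adults and 1.92 ± 0.116 times at E14.5. Ncapd2 over Ncapd3 was −0.13 ± 0.096 in adults and 2.58 ± 0.038 at E14.5, a difference of −2.70. The groups did not overlap in any of these pairs (exact permutation adjusted p = 0.0381 each). Per length, Ncapd2 was 1.15 ± 0.0786 times Ncapd3 in adults and 7.56 ± 0.202 times at E14.5.

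Cohesin is loaded, released, acetylated and positioned by a further set of proteins. Of the 10 genes listed for this, 8 were lower and 2 higher in adults, with a median log2 fold change of −0.58. Over all genes tested, 44.7% were lower and 41.7% higher. Beyond 2-fold 2 of the 10 fell, where 22.7% of all genes tested did. These 2, Cdca5 and Esco2, encode factors that act in sister cohesion in S phase. Cdca5, which encodes sororin, had 0, 2 and 1 counts in the adult libraries, against 28.4, 31.5, 28.0 and 30.8 CPM in the E14.5 libraries (log2 fold change −9.36, SE 0.22, edgeR adjusted p = 2.0e-11). At so low a count its size is uncertain: it was −10.29 without adult replicate 2 and −4.97 on the log2(RPKM + 0.5) scale. Esco2, the S-phase acetyltransferase of Smc3, had 0.275, 0.130 and 0.0836 CPM in the adult libraries, against 34.4, 41.9, 32.9 and 40.6 CPM in the E14.5 libraries (log2 fold change −7.79, SE 0.22, edgeR adjusted p = 6.4e-11). It was −8.41 without adult replicate 1 and −3.71 on the log2(RPKM + 0.5) scale. The other 6 that fell, the loader genes Nipbl and Mau2, the release factors Wapl and Pds5a, the Smc3 deacetylase Hdac8 and the insulator gene Ctcf, had log2 fold changes of −0.92 to −0.36. None of these 6 passed the test against 2-fold.

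Pds5b and Esco1 went the other way. Pds5b, which encodes a regulator of cohesin release, had 137, 147 and 149 CPM in the adult libraries, against 103, 106, 106 and 117 CPM in the E14.5 libraries (log2 fold change 0.42, SE 0.055, edgeR adjusted p = 2.7e-05). Esco1, the acetyltransferase that acts throughout interphase, had 28.1, 34.5 and 37.0 CPM in the adult libraries, against 22.6, 22.7, 23.5 and 25.5 CPM in the E14.5 libraries (log2 fold change 0.49, SE 0.091, edgeR adjusted p = 4.0e-04). Neither rise passed with total counts as the only scaling, where the log2 fold changes were 0.0075 for Pds5b (edgeR adjusted p = 0.90) and 0.078 for Esco1 (edgeR adjusted p = 0.43).

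**Figure D4:**
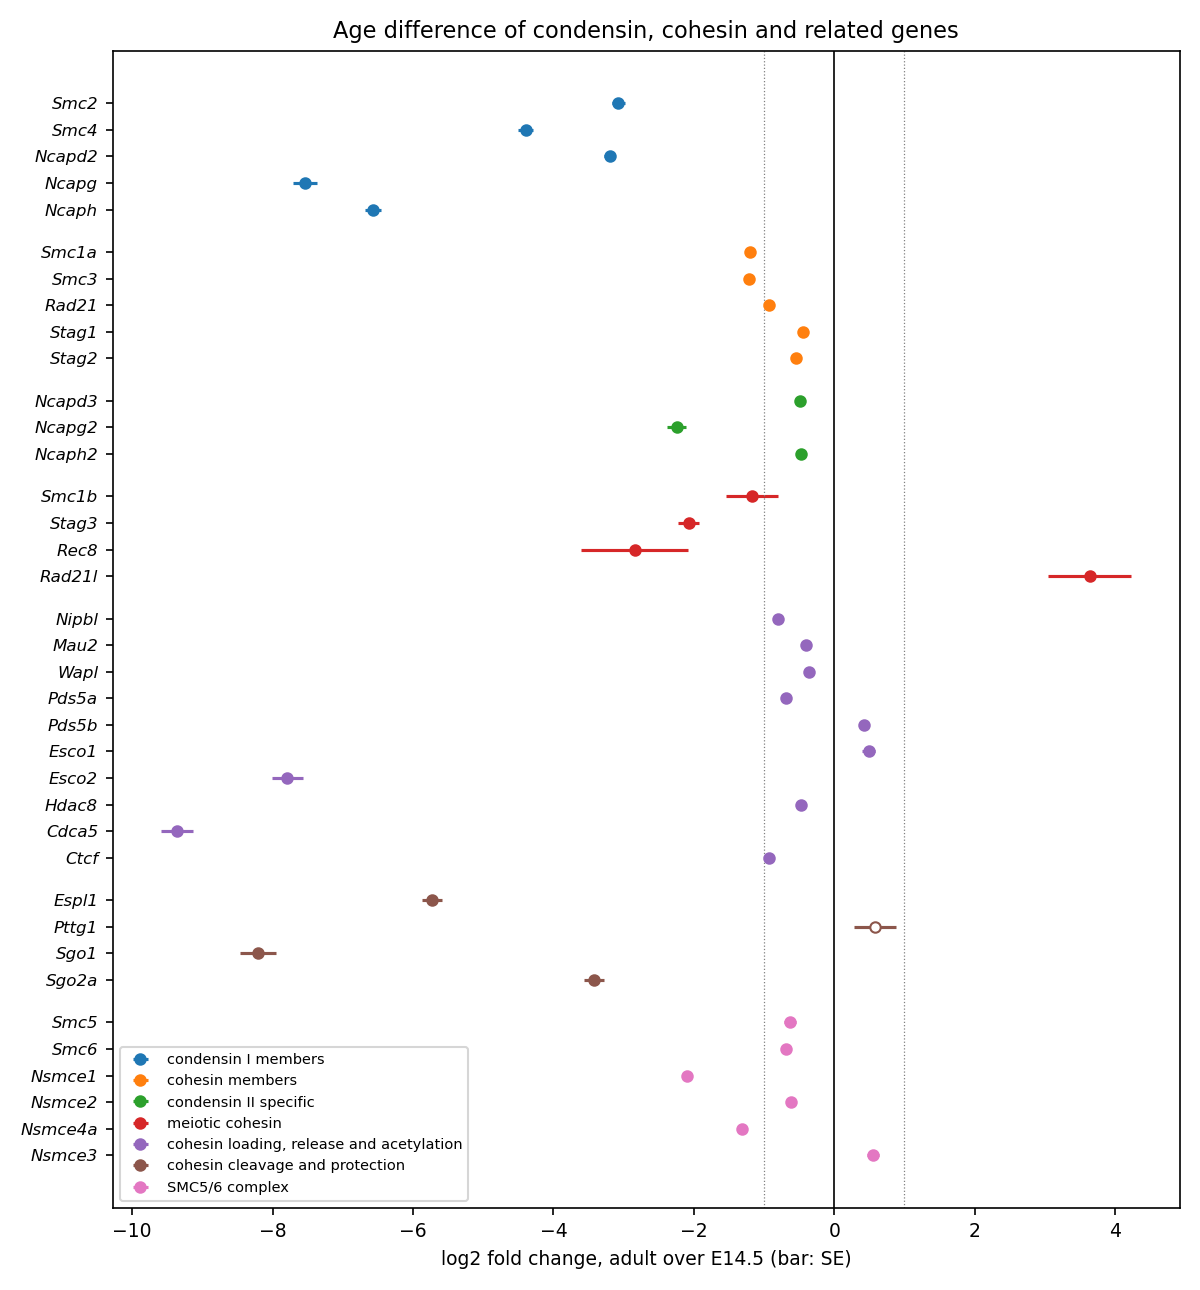
Log2 fold change, adult over E14.5, with its SE for the 10 members and 27 tested genes of the related lists, 1 row per gene and 1 colour per list; filled points passed the edgeR test, the open point did not, and dotted lines mark 2-fold. Condensin I genes lie at −7.54 to −3.07 and cohesin genes at −1.22 to −0.44, while Cdca5, at −9.36, lies farthest to the left.

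Of the 4 genes that cut or protect cohesin, 3 were lower in adults, all beyond 2-fold, and the list had a median log2 fold change of −4.58. Among all genes tested, 44.7% were lower, and 22.7% were lower beyond 2-fold. Sgo1, the shugoshin that protects centromeric cohesin, had 0.157, 0 and 0.167 CPM in the adult libraries, against 34.1, 37.7, 29.1 and 34.4 CPM in the E14.5 libraries (log2 fold change −8.21, SE 0.26, edgeR adjusted p = 1.4e-10, and −4.32 on the log2(RPKM + 0.5) scale). Espl1, which encodes separase, had 1.65, 1.04 and 1.17 CPM in the adult libraries, against 64.2, 72.6, 61.7 and 76.4 CPM in the E14.5 libraries (log2 fold change −5.72, SE 0.14, edgeR adjusted p = 2.6e-11). Pttg1, the separase inhibitor securin, had 26.6, 26.9 and 23.4 CPM in the adult libraries and 20.9, 6.71, 18.7 and 21.9 CPM in the E14.5 libraries, and did not pass (log2 fold change 0.58, SE 0.30, edgeR adjusted p = 0.090). E14.5 replicate 2 was low, and without it the log2 fold change was 0.32 and passed (edgeR adjusted p = 0.0057). Without replicate 4 it was 0.73 and also passed (edgeR adjusted p = 0.047).

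Where 44.7% of all genes tested were lower in adults, so were 3 of the 4 genes for cohesin subunits used in meiosis. Of these, Smc1b, with 2 to 5 counts per adult library, did not pass without adult replicate 2 (edgeR adjusted p = 0.063) or with DESeq2 (adjusted p = 0.081). Stag3 averaged 1.49 ± 0.314 CPM in adults and 6.28 ± 0.365 CPM at E14.5 (log2 fold change −2.07, SE 0.15, edgeR adjusted p = 1.7e-07). Rec8, the meiotic kleisin, had 3.82, 3.04 and 2.76 CPM in the adult libraries, against 6.36, 42.0, 38.4 and 6.36 CPM in the E14.5 libraries (log2 fold change −2.84, SE 0.76, edgeR adjusted p = 0.0046), which limma-voom did not call (−2.21, adjusted p = 0.097). The E14.5 libraries of Rec8 fell into a high and a low pair, females and males. Rad21l, another meiotic kleisin, was the 1 gene higher in adults, with 13, 22 and 21 counts in the adult libraries, against 6, 0, 0 and 4 counts in the E14.5 libraries (log2 fold change 3.64, SE 0.59, edgeR adjusted p = 1.5e-04), and with so few counts the size of this rise is uncertain (4.43 without E14.5 replicate 1).

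The SMC5/6 complex, a related ring that acts in DNA repair, had 6 of its 7 listed genes tested. Of these 5 were lower and 1 higher, beside 44.7% lower and 41.7% higher over all genes tested, and the median log2 fold change was −0.66. Nsmce1, its ubiquitin ligase subunit, had 8.89, 8.68 and 9.53 CPM in the adult libraries, against 39.4, 39.3, 39.1 and 37.5 CPM in the E14.5 libraries (log2 fold change −2.10, SE 0.063, edgeR adjusted p = 9.9e-11). The kleisin of this ring, Nsmce4a, averaged 36.2 ± 3.00 CPM in adults and 89.7 ± 5.66 CPM at E14.5 (log2 fold change −1.31, SE 0.070, edgeR adjusted p = 1.3e-08). Nsmce3, a MAGE family subunit, was higher, at 19.0 ± 0.997 CPM in adults and 13.0 ± 1.04 CPM at E14.5 (log2 fold change 0.55, SE 0.083, edgeR adjusted p = 8.2e-05), but not with total counts as the only scaling (0.14, edgeR adjusted p = 0.16). The ATPases Smc5 and Smc6 fell by 0.63 and 0.69 on the log2 scale.

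Within E14.5 the members varied little. The coefficient of variation over the 4 libraries was 6.70 to 11.2% for condensin genes and 4.74 to 8.53% for cohesin genes. Replicates 2 and 4 were the 2 highest libraries for all 10 members, as for 17 of the 20 markers of cycling cells and for 22.1% of all genes tested. The summed cycling markers were 2432, 2754, 2385 and 2751 CPM in replicates 1 to 4, so the same 2 libraries led. The part of cycling cells in the order of the members was not tested.

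Sex was compared within E14.5, since all adults were female, and Smc1a and Stag2 are on chromosome X. Female over male, the members had log2 fold changes of −0.03 to 0.04, with SE of 0.077 to 0.13, for the X-linked pair as for the autosomal genes. None was called by edgeR or DESeq2, and none had an unadjusted p below 0.05, the lowest being 0.74 (edgeR). Over all genes 10 of 20134, 0.0497%, were called by edgeR, and 590 had an unadjusted p below 0.05. The age falls of all 10 members were also called among females alone, 3 adult and 2 E14.5 libraries. In that fit 8992 of 20785 genes were lower in adults and 8696 were higher.

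The genes most like Smc2 and Smc3 over the 7 libraries were found by the root mean square difference of log2(CPM + 0.5), each gene centred on its own mean, among 11321 genes of at least 10 CPM on average. For Smc2 they were Cenpj, which encodes a centriole protein, at 0.0550, the cell cycle phosphatase gene Cdc25a at 0.0611 and the transcription factor gene Nfia at 0.0622. For Smc3 they included Resf1 at 0.0175 and the splicing helicase gene Dhx15 at 0.0314. The rule picks genes by closeness over libraries of both ages, so fold changes near those of Smc2 and Smc3 follow from the choice. The genes named for Smc2 had log2 fold changes of −3.17 to −2.95, and those named for Smc3 had −1.26 and −1.24.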

How the data were processed

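Total RNA from tissue labelled cortical plate was sequenced after TruSeq stranded mRNA preparation in adults and TruSeq RNA v2, which does not mark strand, at E14.5, per the labels' protocols. Per the submitters' processing notes, the build was GRCm38 and the tools were featureCounts 1.5.0, TopHat2 2.1.0 and bcl2fastq 1.8.4. How strand and multi-mapping reads were handled is not given in the sources used here, nor is the annotation release. The authors' table holds raw read counts, RPM and RPKM for every gene as deposited; counts and RPKM were used, and RPM, the count scaled to the library total, was not printed. From the values, the length behind RPKM equalled the exon bases in GENCODE M21 for 37 of the 38 list genes, all but Esco1. Of 53801 genes, 53706 were found in that annotation; 66 rows had a blank symbol. The older list symbols (Sgol1, Sgol2a, Ndnl2) were matched through RefSeq synonyms.

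The age test on counts used edgeR 4.0.16 under R 4.3.3 (TMM, filterByExpr with minimum count 10 and minimum total 15, age as the only term, Benjamini-Hochberg at 0.05). Each SE was obtained from the F statistic and the fold change. Pairs were compared by an exact permutation test in SciPy 1.17.1, and pseudogenes were matched with BLAST 2.17.0. The age test was checked on simulated counts in which few genes changed, so the check does not cover the scaling between ages that differ in most genes. Replicates differed by a chi-square of 4.44 to 14.4 per degree of freedom, more than sampling noise alone gives. Members and lists were chosen with earlier results of these data known. Named beside the members are, per list, the 2 largest changes in the majority direction and each opposite call; other names describe the rest of a list. Other scalings (RLE, upper quartile, total counts), other low-count filters, DESeq2 1.42.0 and limma 3.58.1 (voom, and trend on RPKM) were run as alternatives. So were fits without each library, on females alone, with a sex term, with a replicate block, and on protein-coding or non-mitochondrial genes. The test against 2-fold was added after the data were seen. A gene that the likeness rule chose is not reported here.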

Additional observations from a re-analysis of the deposited data

How the results depend on the processing

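The falls of all 10 members passed under each of 21 alternatives other than the test against 2-fold, with the largest adjusted p at 0.00047. Over all genes, those fits called 6801 to 11519 lower and 6625 to 10031 higher, of 15234 to 33774 tested. Log2 fold changes ranged from −3.49 to −3.02 for Smc2, −7.95 to −4.22 for Ncapg, −1.63 to −1.16 for Smc3 and −0.86 to −0.39 for Stag1. Against 2-fold (edgeR), Rad21 (−0.93), Stag1 (−0.44) and Stag2 (−0.55) did not pass (adjusted p = 1), all genes gave 4716 lower and 5108 higher, and the counts lower were 2 of the cohesin genes, 1 of condensin II, 2 of the loading list and 2 of SMC5/6. The loading list and SMC5/6 each had 0 genes higher in that test, with total counts only and with limma-trend on RPKM (0.5 or 0.1 added before the log). Meiotic cohesin had 0 higher at a mean of at least 1 CPM, a filter that removes Rad21l. Pttg1 made the count higher in its list 1 without E14.5 replicate 2 or 4, in females only, with sex as a covariate and with the replicate block. Of the other tests on list genes, leaving aside the 2-fold test, 548 kept direction and call, 12 lost the call, 5 gained it and 0 reversed. Upper-quartile scaling moved the median of all genes to −0.20.

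In females only the smallest exact p is 0.1, so no pair could pass (adjusted p = 0.133), and the differences were 1.30 for Smc2/Smc4, −1.81 for Smc2/Smc3, −4.95 for Ncaph/Rad21, −5.41 for Ncaph/Ncaph2, −2.69 for Ncapd2/Ncapd3 and −4.01 for Ncapg/Ncapg2. With 1 library left out they were 1.21 to 1.36, −1.84 to −1.79, −5.04 to −4.93, −5.51 to −5.32, −2.76 to −2.67 and −4.16 to −3.92 in that order, Smc1a/Smc3 changed sign (−0.018 to 0.045) and Stag2/Stag1 was −0.14 to −0.068. With deposited RPKM plus 0.5, Stag2/Stag1 passed at −0.13. Without the added 0.5 the RPKM ratios overlapped, at 1.92 to 2.13 in adults and 2.11 to 2.24 at E14.5. The cause of the pass was not tested. All 10 members kept their place in the order by mean RPKM under each alternative run but 1. Without E14.5 replicate 1 only 8 did, as Ncaph and Stag2 changed places.

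The replicate numbers did not pair the samples: same-numbered libraries had correlations of −0.0013, −0.015 and 0.028, and not every library correlated best with its own number. With the replicate block, 9134 genes were lower and 8535 higher, and all 10 members kept their call, at −3.02 for Smc2 and −1.19 for Smc3. Depth limits the adult values of Ncapg, Ncaph, Esco2, Cdca5 and Sgo1 and the E14.5 values of Rad21l. The fold changes of all these genes move with the pseudocount.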

Other observations

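Rec8 differed between the sexes within E14.5, unlike the 10 members. The females had 42.0 and 38.4 CPM, from 1540 and 1461 counts, and the males 6.36 and 6.36 CPM, from 286 and 308 counts. The log2 fold change, female over male, was 2.66 (SE 0.097, edgeR adjusted p = 2.1e-04 over 20134 genes), and it was 2.59 to 2.72 with 1 library left out. Of the 10 genes called for sex, 5 were on chromosomes X or Y and 5 elsewhere. Of the other meiotic genes, Stag3 and Smc1b did not pass that test. Stag3 was at 6.30 CPM in females and 6.27 CPM in males, and Smc1b at 0.428 CPM in females and 0.334 CPM in males. Rad21l was not among the genes tested for sex. It had 6 and 4 counts in the E14.5 males and 0 in both E14.5 females. Compared with the same adults, all female, the E14.5 females alone gave Rec8 an age difference of −3.65.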
